A study of Mus musculus with 15 samples.

Results

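*C1ql2*, *Trpm1*, *Enpp2*, *Nlrc4* and *Tgm3* were among the genes with the largest falls when OCT4 was removed from mouse embryonic stem cells (ESCs). They are 5 of the 48709 genes counted. *C1ql2* and *Trpm1* were selected on their fall after 24 h in O4AID ESCs, and *Enpp2*, *Nlrc4* and *Tgm3* on their fall after 36 h in CreER ESCs. The values of those contrasts therefore describe the choice and are given without a test.

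CreER ESCs (strain Mixed 129SV C57BL/6) carry a floxed *Oct4* allele opposite a null allele and a tamoxifen-activated Cre recombinase driven by the CAG promoter (genotype Oct4Fl/-; CAG CreER). They were treated with 4-hydroxytamoxifen (4-OHT, 500 nM) for 0, 12, 18, 24 or 36 h, with 2 libraries at each time. O4AID ESCs (strain 129SV, made from the ZHBT line, Oct4-/-; TetOFF Oct4; CAG Oct4AID; CAG Tir1) lack the endogenous gene and live on OCT4 fused to an auxin-inducible degron, which auxin (IAA, 500 µM) marks for destruction through the plant protein TIR1. They were sampled at 0, 1.5, 6, 10 and 24 h of IAA with 1 library at each time, and doxycycline (1 µg/ml) kept their wild-type *Oct4* transgene silent throughout, the 0 h library included. All cells grew in N2B27 medium with PD03, Chiron and LIF. Both fusion and recombinase come from constitutive transgenes, no untreated culture was sampled at the later times, and the labels do not say that replicates came from separate cultures, so p-values measure the spread between these samples, which may be technical.

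OCT4, with SOX2, binds enhancers of genes that are active in naive pluripotent cells, and ESCs that lose it leave the pluripotent state. None of the 5 genes is a textbook pluripotency factor. *C1ql2* encodes a secreted C1q-like protein of synapses, *Trpm1* a cation channel of retinal bipolar cells and melanocytes, *Enpp2* autotaxin, the secreted enzyme that makes lysophosphatidic acid (LPA), *Nlrc4* an inflammasome protein of macrophages and intestinal epithelium, and *Tgm3* a transglutaminase that cross-links proteins of the cornified envelope in skin and hair.

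Library totals were 21.7 to 30.8 M (mega) counts in CreER and 40.5 to 48.7 M in O4AID. All 8 naive ESC markers examined (*Pou5f1*, *Sox2*, *Nanog*, *Zfp42*, *Esrrb*, *Klf4*, *Tdgf1* and *Dppa3*) were above 3 counts in every library. Their summed level went from 2524 and 2550 CPM at 0 h to 1832 and 1880 at 36 h in CreER and from 3838 to 1351 CPM at 24 h in O4AID, and the part of this in the members' falls was not tested. The sum includes *Pou5f1*, the gene of OCT4 itself, at a mean of 327 CPM (0 h) and 121 CPM (36 h) in CreER. In O4AID, whose OCT4 fusion comes from a constitutive transgene, *Pou5f1* was at 711.5 CPM (0 h) and 609 CPM (24 h). *Pou5f1* mRNA, whose gene the CreER route deletes, was at 70.4% of its 0 h level by 12 h, then 51.4% (18 h), 41.9% (24 h) and 37.1% (36 h). These are counts over the whole gene and cannot tell intact transcript from any left by a deleted or null allele. By qRT-PCR the paper reports full loss of *Oct4* RNA after more than a day. In O4AID, where the protein and not the transcript is the target, *Pou5f1* mRNA was at 85.6% after 24 h. In these bulk libraries, fewer cells that express a gene and less RNA per cell cannot be told apart.

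The 5 loci lie on 5 chromosomes of GRCm38/mm10. *C1ql2* (ENSMUSG00000036907) spans chr1:120340582-120343174 on the plus strand in 2 exons. *Trpm1* (ENSMUSG00000030523) spans chr7:64153835-64269775, plus strand, *Enpp2* (ENSMUSG00000022425) chr15:54838898-54920146, minus strand, *Nlrc4* (ENSMUSG00000039193) chr17:74426295-74459108, minus strand, and *Tgm3* (ENSMUSG00000027401) chr2:130012349-130050399, plus strand. *Trpm1* overlaps 4 small annotated genes, *Mir211* among them, and *Tgm3* overlaps 1, *Mir6339*. None of these overlapping genes exceeded 11 counts in any library.

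Promoter sequence was given for 4 of the 5 genes in RefSeq (GRCm38.p6), as the 250 bases before each annotated start, and *Enpp2* had no entry. The sequences shown contrast the CpG-rich promoter of *C1ql2* with those at the start sites of *Trpm1* and *Nlrc4*, which hold some of the motifs searched. Capitals mark ATGCAAA, a core of the octamer that OCT4 binds, and the E-boxes CACGTG and CATGTG, read on both strands. CATTGT, a SOX2 core, and ATGCAAAT, the whole octamer, which contains ATGCAAA, were also searched. These motifs were chosen after the promoters had been seen.
C1ql2 (chr1:120340332-120340581, plus strand): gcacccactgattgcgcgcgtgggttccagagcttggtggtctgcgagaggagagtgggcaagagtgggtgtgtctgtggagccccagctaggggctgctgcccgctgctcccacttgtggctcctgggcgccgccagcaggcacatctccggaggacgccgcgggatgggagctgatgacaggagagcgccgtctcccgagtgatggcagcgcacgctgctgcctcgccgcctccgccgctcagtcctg
Trpm1, outer start (chr7:64153585-64153834, plus strand): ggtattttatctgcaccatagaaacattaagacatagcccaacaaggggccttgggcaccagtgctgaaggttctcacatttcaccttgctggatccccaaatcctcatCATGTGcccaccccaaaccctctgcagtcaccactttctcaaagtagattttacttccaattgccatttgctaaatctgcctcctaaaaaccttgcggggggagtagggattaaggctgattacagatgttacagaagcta
Trpm1, inner start (chr7:64185209-64185458, plus strand): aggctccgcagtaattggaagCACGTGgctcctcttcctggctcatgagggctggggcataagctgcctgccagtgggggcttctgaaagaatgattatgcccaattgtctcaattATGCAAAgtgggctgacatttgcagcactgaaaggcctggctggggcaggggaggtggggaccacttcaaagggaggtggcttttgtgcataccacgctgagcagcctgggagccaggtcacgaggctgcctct
Nlrc4 (chr17:74459109-74459358, minus strand): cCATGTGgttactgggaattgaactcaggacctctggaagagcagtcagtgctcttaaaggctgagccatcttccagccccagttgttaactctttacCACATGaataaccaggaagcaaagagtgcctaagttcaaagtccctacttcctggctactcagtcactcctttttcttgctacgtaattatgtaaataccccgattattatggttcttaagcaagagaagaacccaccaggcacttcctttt

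The *C1ql2* promoter was 68.8% G or C with 20 CpG dinucleotides and held none of the motifs. Over all 32817 promoter windows the median was 52.4% with 6 CpG. The inner *Trpm1* start had ATGCAAA 134 bases before it and CACGTG, which reads alike on both strands, 229 bases before it. ATGCAAA was in 4.13% of all windows, CACGTG in 6.02% and ATGCAAAT in 1.60%. At the outer *Trpm1* start, CATGTG, a motif in 12.3% of windows, lay 141 bases upstream. *Nlrc4* held CATGTG 249 bases before its start and once more, on the opposite strand, at 152 bases. The *Tgm3* window (44% G or C, 6 CpG) held none, and CATTGT, present in 10.7% of windows, was in no window of the 4 genes. A match is a description of these letters, not of binding, and the counts measured no start site.

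The 5 genes fell into 3 patterns of expression between the lines (plot of levels in every library). *C1ql2* and *Trpm1* were high in O4AID and near the detection limit in CreER. *Nlrc4* and *Tgm3* were readily counted in CreER and near that limit in O4AID. Only *Enpp2* among the 5 had a similar level in both. Levels are CPM, a gene's counts for each 1 M of the TMM-scaled library total, and were scaled within each route.

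**Figure D1:**
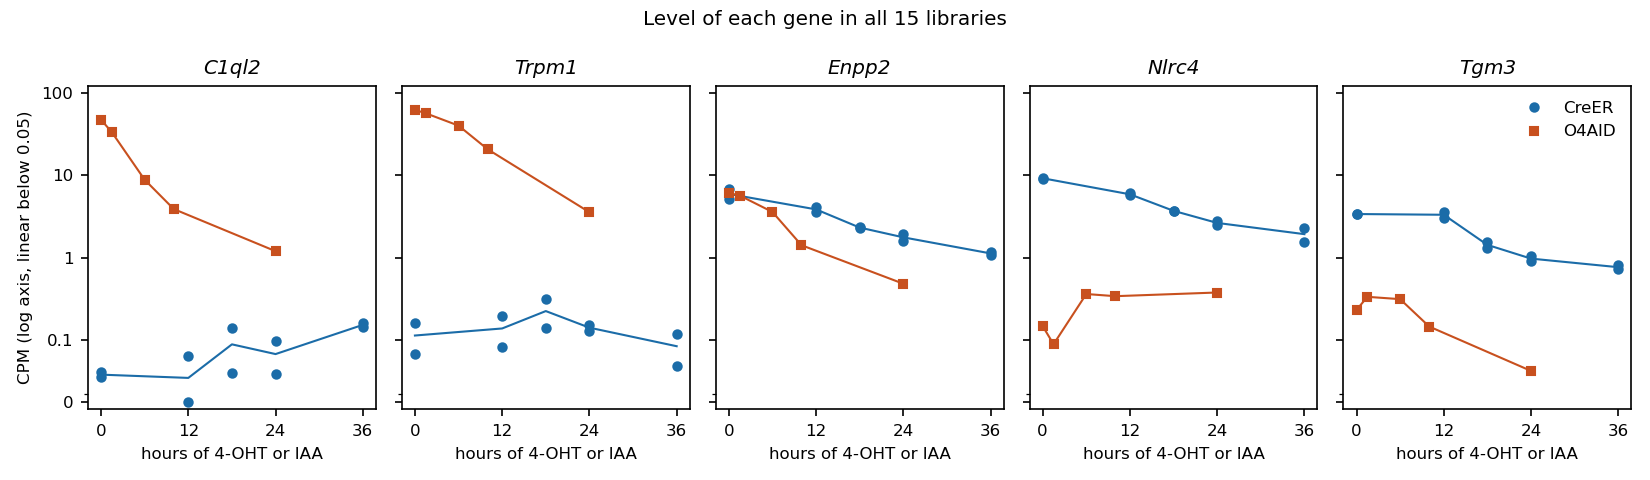
CPM of each gene in all 15 libraries against hours of 4-OHT (CreER, blue circles, 2 replicates at each time) or IAA (O4AID, orange squares, 1 library at each time); lines join the means and the vertical axis is logarithmic above 0.05 CPM and linear below. *C1ql2* and *Trpm1* start at 46.8 and 61.7 CPM in O4AID and stay at or below 0.161 and 0.311 CPM in CreER, *Enpp2* falls in both, and *Nlrc4* and *Tgm3* stay at or below 0.378 and 0.335 CPM in O4AID.

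*C1ql2* gave 2212 counts in the O4AID library at 0 h (46.8 CPM) and 1 count in each CreER library at 0 h. The ratio of the O4AID level to the pooled CreER level was 1277-fold (95% exact interval 353 to 10553, counting error only). For *Trpm1* the counts were 2916 in O4AID and 4 and 2 in CreER, a ratio of 561-fold (258 to 1531). Both genes were well expressed in 1 of these lines before any treatment and at the edge of detection in the other.

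*Nlrc4* was reversed, with 7 counts in O4AID and 226 and 274 in CreER at 0 h, 61.9-fold lower in O4AID (29.8 to 155). *Tgm3* had 11 counts in O4AID and 85 and 99 in CreER, 14.5-fold lower in O4AID (7.91 to 29.5). *Enpp2* stood at 6.08 CPM in O4AID and at 5.09 and 6.72 CPM in CreER, a log2 difference of 0.02 (−0.21 to 0.26). The ratios between lines use levels scaled within each route, and their intervals do not cover an error in scaling between the lines. Of 18602 genes compared between the lines, 16.3% were at least 3 log2 units apart in either direction, a limit set after the members' values had been seen, and 4 of the 5 members were. The choice by large falls required a high 0 h level in the route that chose each gene, so nothing is read from this count. The lines differ in strain, genotype and doxycycline, and the O4AID level rests on 1 library, so what separates them cannot be told apart here.

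Per kilobase of exon, the scale on which genes can be compared with each other, the order at 0 h in CreER was *Nlrc4* (2.36 and 2.41 CPM per kb), *Enpp2* (1.47 and 1.94) and *Tgm3* (0.824 and 0.809), with no overlap between neighbours in the order. *C1ql2* and *Trpm1* did not exceed 0.0803 and 0.0211 CPM per kb in any CreER library. In O4AID at 0 h the order was *C1ql2* (23.4), *Trpm1* (4.19), *Enpp2* (1.75), *Tgm3* (0.0563) and *Nlrc4* (0.0386). *Tgm3* and *Nlrc4*, with 11 and 7 counts, are not separable at this depth.

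*C1ql2* fell first and furthest in O4AID. Its counts in time order were 2212, 1472, 363, 159 and 57, or 46.8, 32.9, 8.77, 3.88 and 1.198 CPM. Each library was below the one before. The level was at 70.3% of 0 h after 1.5 h (95% exact interval 65.7 to 75.1), 18.7% after 6 h (16.7 to 20.9), 8.28% after 10 h (7.005 to 9.73) and 2.56% after 24 h (1.93 to 3.33). That is a 39.1-fold fall, or −5.29 on the log2 scale (−5.69 to −4.91), and it is the value that chose the gene.

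*Trpm1* followed more slowly, with 2916, 2507, 1644, 843 and 169 counts, or 61.7, 56.0, 39.7, 20.6 and 3.55 CPM. It was still at 90.8% after 1.5 h (86.0 to 95.8) and 64.4% after 6 h (60.6 to 68.4), when *C1ql2* was already below 20.9%, the upper limit of its interval. At 10 h it stood at 33.3% (30.8 to 36.0) and at 24 h at 5.75% (4.90 to 6.72), 17.4-fold lower (log2 −4.12, −4.35 to −3.90). These intervals cover counting error only, since 1 library at each time gives no spread between cultures.

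*Enpp2* was not selected on O4AID, so its course there is separate from the choice. Its counts were 287, 253, 148, 58 and 23, or 6.08, 5.65, 3.58, 1.41 and 0.483 CPM. Again every library was below the one before. The level was at 93.1% after 1.5 h (78.3 to 110.6), 58.9% after 6 h (47.96 to 72.0), 23.3% after 10 h (17.2 to 31.0) and 7.95% after 24 h (4.96 to 12.2). The 24 h ratio was −3.65 on the log2 scale (−4.33 to −3.04), a 12.6-fold fall. At 1.5, 6 and 24 h the intervals of *Enpp2* and *Trpm1* overlapped, and at 10 h they met only at their edges.

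*Nlrc4* and *Tgm3* gave few counts in O4AID. *Nlrc4* had 7, 4, 15, 14 and 18 counts, so the libraries from 6 h onwards were above the first pair, with a log2 ratio of 1.35 at 24 h (0.025 to 2.85). *Tgm3* had 11, 15, 13, 6 and 2 counts, with a log2 ratio of −2.47 at 24 h (−5.68 to −0.27) that rests on 2 counts.

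A gene was taken as lower in O4AID when its log2 ratio to 0 h was −1 or below, among the 17471 genes that averaged 10 or more counts across its libraries. *Tgm3* had a lower mean and stayed outside, which left 4 members. At 1.5 h none of the 4 was lower, against 1.74% of all genes. At 6 h *C1ql2* was, against 2.80%. At 10 and 24 h *C1ql2*, *Trpm1* and *Enpp2* were, against 3.28% and 6.94%. *C1ql2* and *Trpm1* were there by choice at 24 h. Their values at 6 and 10 h share the 0 h library of that choice, so nothing is read from those calls either. *Nlrc4* was among the 9.57% of genes higher by at least 1 log2 unit at 24 h.

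In CreER, *Enpp2* fell step by step. Its levels in the 2 replicates were 5.09 and 6.72 CPM before treatment, 4.09 and 3.59 after 12 h, 2.30 and 2.33 after 18 h, 1.95 and 1.58 after 24 h, and 1.08 and 1.17 after 36 h. No time overlapped the next, a description of 2 replicates that was not set against the share over all genes. The mean remaining was 65.1% ± 5.97 (SD, n = 2), 39.2% ± 0.425, 29.8% ± 4.43 and 19.1% ± 0.984 in that order. The edgeR log2 fold change at 36 h, which chose the gene, was −2.40 (SE 0.202).

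*Nlrc4* ran almost alongside *Enpp2*. The replicates were at 9.06 and 9.26 CPM before treatment, then 5.72 and 5.99 (12 h), 3.66 and 3.72 (18 h), 2.50 and 2.77 (24 h), and 1.57 and 2.28 (36 h), again with no overlap between successive times. It remained at 63.9% ± 2.11 (SD, n = 2), 40.3% ± 0.505, 28.8% ± 2.095 and 21.0% ± 5.55 of 0 h at 12, 18, 24 and 36 h. Its log2 fold change at 36 h was −2.27 (SE 0.155).

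*Tgm3* held its level longer. Its replicates were at 3.41 and 3.34 CPM at 0 h and at 3.02 and 3.59 at 12 h, so that 0 and 12 h overlapped, and the mean at 12 h was 98.0% ± 12.0 (SD, n = 2) of 0 h. By 18 h they were at 1.32 and 1.53 CPM, by 24 h at 0.909 and 1.04, and by 36 h at 0.803 and 0.729. The last of these is 22.7% ± 1.55 of 0 h, a log2 fold change of −2.13 (SE 0.230). *Tgm3* was at 42.3% ± 4.36 at 18 h, where *Enpp2* and *Nlrc4* had values of 39.2% and 40.3%.

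**Figure D2:**
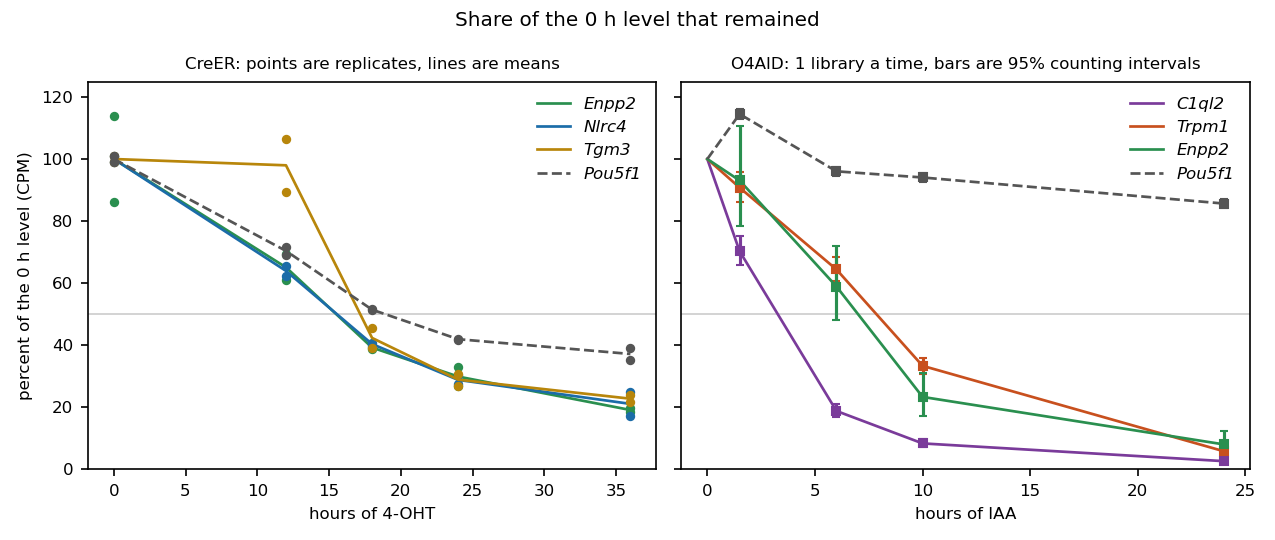
Percent of the 0 h CPM that remained against hours of 4-OHT in CreER (left, points are replicates and lines their means) or IAA in O4AID (right, 1 library at each time with 95% exact counting intervals), with *Pou5f1* mRNA dashed and a grey line at 50%. In CreER the 3 genes lie between 19.1% and 22.7% at 36 h, below *Pou5f1* at 37.1%, and in O4AID *C1ql2* is at 18.7% by 6 h while *Trpm1* and *Enpp2* are at 64.4% and 58.9%; *Nlrc4* and *Tgm3* in O4AID, and *C1ql2* and *Trpm1* in CreER, are left out for their low counts.

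Over all genes tested, edgeR called 0.137% lower than 0 h after 12 h, 3.79% after 18 h, 10.6% after 24 h and 17.2% after 36 h. These contrasts share the 0 h libraries on which *Enpp2*, *Nlrc4* and *Tgm3* were chosen, and nothing is read from the 3 genes being among the genes called at 36 h. The step from 12 to 24 h compares libraries that the choice did not use and was tested, with the spread estimated over all 10 libraries. All 3 genes were called lower over it, against 6.76% of the 18969 genes tested. Their 12 h and 24 h replicates did not overlap, but the share of all genes separated in this way was not computed. The step lies inside the 0 to 36 h span on which the 3 genes were chosen, so a fall over it was likely beforehand. Its p-values describe the size of the step against the spread and are no independent support for the falls.

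Between 12 and 24 h *Tgm3* fell by 1.76 on the log2 scale (SE 0.207, edgeR quasi-likelihood test, Benjamini-Hochberg adjusted p = 7.71e-07). *Nlrc4* fell by 1.15 (SE 0.148, edgeR adjusted p = 2.72e-06) and *Enpp2* by 1.12 (SE 0.187, edgeR adjusted p = 0.000106). Over 12 other settings of the fit the fold change of *Tgm3* ran from −1.88 to −1.64, that of *Nlrc4* from −1.22 to −1.07 and that of *Enpp2* from −1.29 to −0.98. With only the 4 libraries of these times in the fit, the edgeR adjusted p was 4.00e-07 for *Tgm3*, 7.92e-07 for *Nlrc4* and 2.95e-05 for *Enpp2*. The largest edgeR or DESeq2 adjusted p over those settings was 0.00928, for *Enpp2*. *Pou5f1* mRNA fell by 0.75 over the same step (SE 0.0443, edgeR adjusted p = 4.82e-12).

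*C1ql2* and *Trpm1* did not pass the count filter of the CreER fit, so no fold change or test is given for them there. *C1ql2* had 0 to 4 counts in the 10 CreER libraries, 2 over the 0 h libraries together and 18 over the 8 treated ones (log2 ratio 1.21, 95% exact interval −0.85 to 4.37). *Trpm1* had 1 to 8 counts, 6 at 0 h and 32 after treatment (0.46, −0.82 to 2.01). A fall of the size seen in O4AID was not detectable at this depth, because the starting level was already near 0.

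At 24 h, the treatment time shared by both routes, *Enpp2* stood at 7.95% of its 0 h level in O4AID (4.96 to 12.2) and at 33.0% and 26.7% in the 2 CreER replicates. The O4AID interval lay below both replicates. This difference was not tested, having 1 library on one side. *Nlrc4* at 24 h was at 28.8% in CreER and above its 0 h count in O4AID, and *Tgm3* was at 28.8% in CreER.

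Among falls in CreER at 36 h, ranked over 2990 genes with a mean of at least 50 counts that were called lower and did not overlap 0 h, *Enpp2*, *Nlrc4* and *Tgm3* came next to one another, at log2 −2.40, −2.27 and −2.13. Ahead of them stood only *CT010467.1*, a ribosomal RNA gene whose level also depends on rRNA depletion (−5.19), and the next after *Tgm3* was *Lef1* (−1.83). Among 4283 falls ranked in O4AID at 24 h, on the log2 ratio of CPM plus 1, *C1ql2* (−4.44) and *Trpm1* (−3.78) came first, with *Jam2* just outside (−3.65). The order after *C1ql2* depends on the added 1. Without it, *Aox3* (−4.27) stood ahead of *Trpm1* (−4.12), and *Pou2f3* (−4.07) and *Tcl1* (−3.93) stood ahead of *Jam2* (−3.70).

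Genes with the most similar course were found by the root mean square difference of 4 log2 changes (CPM plus 1) in the route that chose each gene. For *C1ql2* the nearest of 13516 genes was *Pou2f3* at 0.609, then *Jam2* (0.682) and *Nr0b1* (1.00). Its 24 h fall, by which it was chosen, is 1 of the 4 changes compared. *Trpm1* was nearest to *Aox3* (0.260), *Tcl1* (0.271) and *Gm17167* (0.365). *Pou2f3*, *Aox3* and *Gm17167* were, like *Trpm1*, lower in CreER at 0 h, at 0.856, 1.76 and 0.202 CPM against 22.0, 17.8 and 189 CPM in O4AID. *Jam2* (70.7 against 312 CPM), *Nr0b1* (25.5 against 52.1) and *Tcl1* (25.6 against 29.7) were well expressed in both lines.

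In CreER, among 13450 genes, *Enpp2* was nearest to *Cobl* (0.0818), to *Foxd3* (0.107), a forkhead factor of pluripotent cells, and to *Nlrc4* (0.112). The nearest of *Nlrc4* were *Enpp2* (0.112), *Enox1* (0.160) and *Foxd3* (0.177). *Tgm3* was nearest to *Fgf15* (0.137), *Nr0b1* (0.166), the gene of the nuclear receptor DAX1, and *Zmat4* (0.171). In O4AID at 0 h *Enox1*, *Fgf15* and *Zmat4* were at 0.127, 0.106 and 0.0847 CPM, in the range of *Nlrc4* (0.148) and *Tgm3* (0.233), whereas *Cobl*, *Foxd3* and *Nr0b1* were at 169.7, 7.75 and 52.1 CPM. With 1 added to each CPM, distances between genes of low level are small by construction, and they say nothing of shared control.

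None of the nearest genes on either side with at least 50 counts on average had a fall near the size of the member's (plot of each gene and its neighbours). *Steap3*, 67.9 kb from *C1ql2*, was higher by 1.08 log2 units in O4AID at 24 h (0.99 to 1.17), and *Insig2* stood at 0.11. Beside *Trpm1*, *Klf13* was at 0.53 and *Mtmr10*, 17.9 kb away, at 0.24. *Slc30a6*, whose end is 2.07 kb from *Nlrc4*, had a log2 fold change of −0.10 in CreER at 36 h (edgeR adjusted p = 0.354), and *Yipf4* one of 0.14 (edgeR adjusted p = 0.0784).

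Beside *Enpp2*, *Mal2* fell by 0.44 in CreER (edgeR adjusted p = 0.035) and *Taf2* was at −0.11 (edgeR adjusted p = 0.0835). *Mal2* lost this call without any 1 of the 4 libraries compared (edgeR adjusted p = 0.0611 to 0.137). Both neighbours of *Tgm3* were slightly lower at 36 h. *Stk35* fell by 0.23 (edgeR adjusted p = 0.000957) and *Snrpb* by 0.13 (edgeR adjusted p = 0.0206), small values beside the −2.13 of *Tgm3*, and *Snrpb* lost the call without 0 h replicate 1 or 36 h replicate 1 (edgeR adjusted p = 0.0893 and 0.223).

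**Figure D3:**
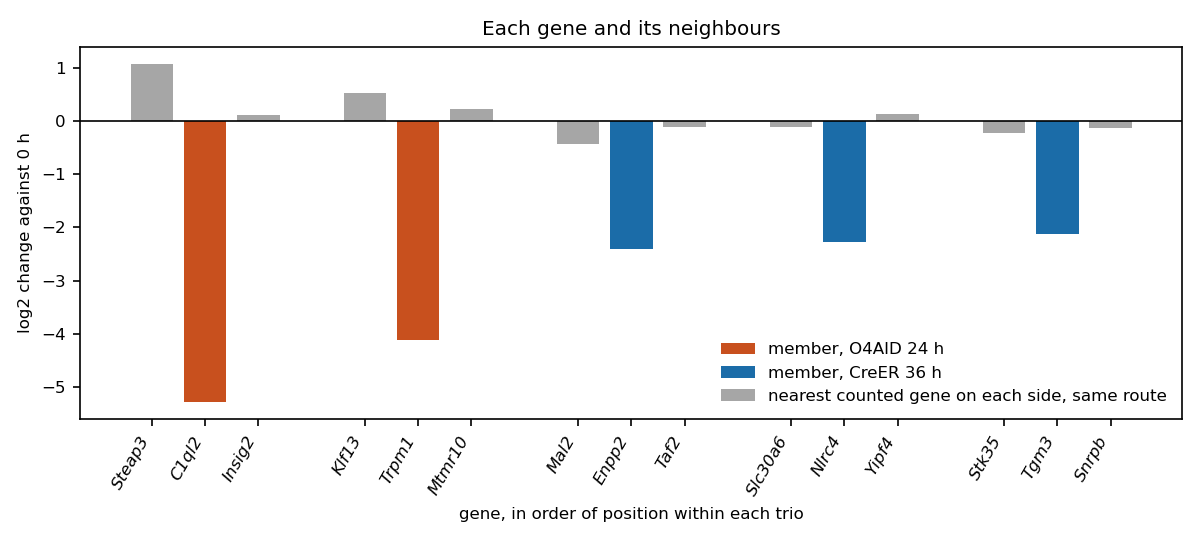
Log2 change against 0 h of each gene (coloured) and of the nearest counted gene on each side (grey), in order of position, for O4AID at 24 h (orange, *C1ql2* and *Trpm1* with their neighbours) or CreER at 36 h (blue, *Enpp2*, *Nlrc4* and *Tgm3* with theirs). The 5 genes run from −5.29 to −2.13 and their 10 neighbours from −0.44 to 1.08.

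Molecular partners and relatives of the 5 genes moved in both directions. Of 68 partner and family genes in 5 lists, 43 were tested in CreER at 36 h, of which 12 rose and 6 fell, against 19.4% higher and 17.2% lower over all genes tested. In O4AID at 24 h, 40 were compared, 10 higher and 6 lower by at least 1 log2 unit, against 9.57% higher and 6.94% lower over all genes. The median of all genes was 0.01 on the log2 scale in both routes.

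Of the C1q-like and cerebellin ligands and their receptors, 10 of 13 were tested in CreER, 3 rose and none fell, with a median of 0.42. *C1ql4*, a close relative of *C1ql2*, rose by 1.42 (SE 0.258, edgeR adjusted p = 6.96e-05), *Cbln4* by 1.38 and *Cbln1* by 0.62. Without 36 h replicate 1 *Cbln4* stood at 0.99 (edgeR adjusted p = 0.0781). In O4AID *C1ql4* stood at 1.14, whereas *Adgrb1* was at −1.94 and *Grik4*, the gene of a kainate receptor subunit, at −1.69 (8 compared, median −0.33).

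Among TRPM channels and partners of TRPM1, 11 of 13 were tested in CreER, and *Trpm6*, a magnesium channel, rose (0.76, edgeR adjusted p = 0.0285) while *Grm6*, the glutamate receptor that gates TRPM1 in the retina, fell by 1.43 (edgeR adjusted p = 0.0119). Both calls rest on low counts. *Trpm6* lost it without 0 h replicate 1 (edgeR adjusted p = 0.192) or either 36 h replicate (0.109 and 0.0822), and *Grm6* without either 36 h replicate (0.072 and 0.0537). The list's median was 0.09 in CreER and 0.12 in O4AID. In O4AID *Trpm6* went from 30 to 650 counts, a log2 ratio of 4.43, opposite to *Trpm1*. *Mitf*, the melanocyte factor known to drive *Trpm1*, went from 36.2 to 18.0 CPM (−1.01) in O4AID and was at 5.46 CPM in CreER at 0 h, with a fold change of −0.15 (edgeR adjusted p = 0.488). Its O4AID ratio rests on 1 library at each time, and any part of *Mitf* in the level or fall of *Trpm1* was not tested. *Trpm2* was at −1.50 in O4AID.

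The ENPP enzymes and LPA genes moved both ways. Of 14 genes 13 were tested in CreER, 6 rose and 3 fell, with a median of 0.08. *Enpp3*, a related ectoenzyme, fell from 98.4 to 47.6 CPM, by 1.04 (edgeR adjusted p = 3.68e-15), and the LPA receptor genes *Lpar4* and *Lpar5* fell by 1.07 and 0.53, the latter not called without 36 h replicate 2 (edgeR adjusted p = 0.0571). *Lpar3*, another LPA receptor, rose by 2.58 from 0.178 CPM (SE 0.452, edgeR adjusted p = 4.48e-05), *Enpp5* by 0.86 and *Plpp3*, a phosphatase that breaks down LPA, by 0.69. In O4AID 12 were compared, 4 were higher and *Enpp3* alone was lower (−1.66), against 9.57% and 6.94% over all genes, with a list median of 0.47.

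Most genes of the inflammasome that NLRC4 forms had few counts. Only 3 of 12 genes could be tested in CreER (median 0.00), and *Casp1*, the protease it activates, and *Il1b* had at most 2 counts in any library. *Aim2*, a sensor of DNA in another inflammasome, fell by 0.66 in CreER (edgeR adjusted p = 2.96e-05) and stood at −0.67 in O4AID. The adaptor *Pycard* had a fold change of 0.00 (edgeR adjusted p = 0.991). In O4AID 6 were compared (median 0.21) and *Naip1* and *Naip5*, sensors upstream of NLRC4 with near-identical paralogues that make their counts uncertain, were higher, at 5 to 56 and 11 to 30 counts.

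Of 16 transglutaminase and cornified envelope genes 6 were tested in CreER (median −0.01). *Ppl* (1.01, edgeR adjusted p = 1.84e-11) and *Tgm2* (0.46, edgeR adjusted p = 0.00578) rose, and *Tchh*, a hair follicle substrate of TGM3, fell by 0.66 (edgeR adjusted p = 0.000163). *Tgm1*, the other main epidermal enzyme, was at −0.14 (edgeR adjusted p = 0.136). In O4AID 5 were compared, *Ppl* was higher at 1.01, none was lower, and the median was −0.27.

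**Figure D4:**
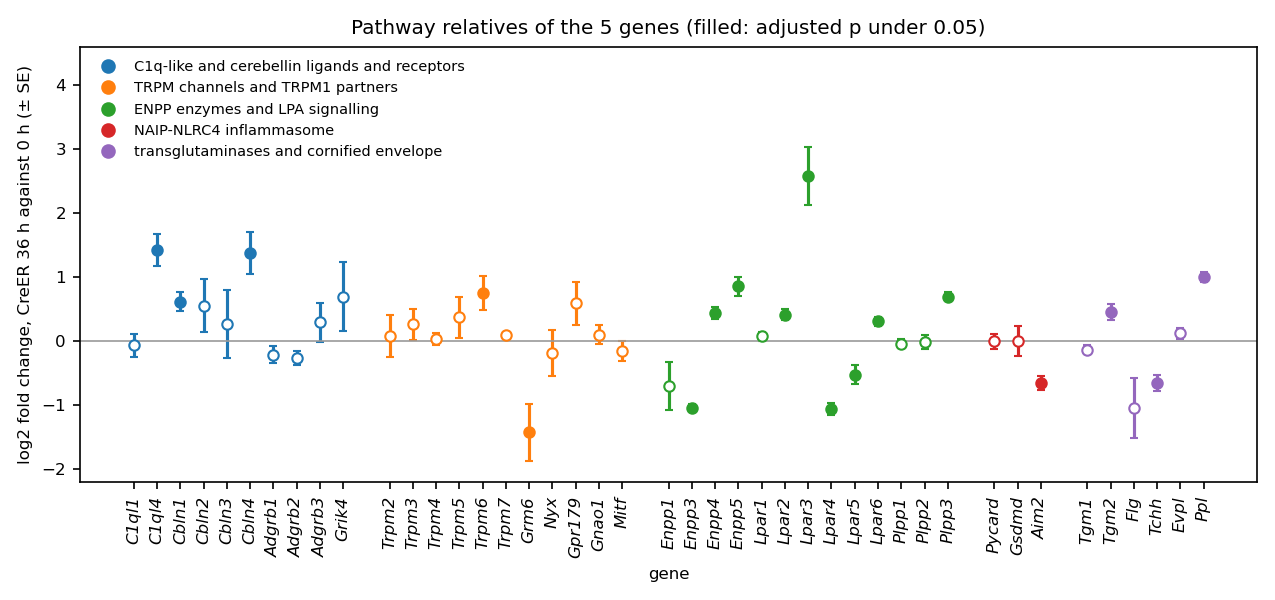
Log2 fold change in CreER at 36 h against 0 h, with its standard error, of the 43 partner and family genes that could be tested, coloured by list and filled where the edgeR adjusted p was under 0.05. Filled points lie on both sides of 0 (12 above and 6 below), from −1.43 for *Grm6* to 2.58 for *Lpar3*.

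Markers of macrophages, melanocytes and keratinocytes were low. The summed level of 6 macrophage markers was 0.779 to 1.36 CPM in CreER and 0.380 to 1.02 in O4AID, that of 5 melanocyte markers 3.26 to 5.45 and 4.56 to 6.93, and that of 5 keratinocyte markers 1.48 to 3.44 and 1.52 to 2.84. At least 2 genes of each of these lists had at most 3 counts in every library of either route. Summed levels of 5 fibroblast markers were 7.47 to 9.92 CPM in CreER and 5.36 to 9.88 in O4AID. The 4 neuronal markers summed to 149.6 to 152.5 CPM at 0 h and 209.7 to 228 at 36 h in CreER, and to 15.7 and 8.99 CPM at 0 and 24 h in O4AID, and their part in the falls was not tested.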

How the data were processed

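The authors depleted ribosomal RNA, made directional libraries, trimmed reads with Trim Galore 0.1.4, aligned them to GRCm38/mm10 with TopHat2 2.1.0 and counted them per Ensembl gene with featureCounts 1.5.1. The strand setting is not given in the sources used here. The 15 deposited files hold these counts, raw and per library, of 48801 entries each. The 92 spike-in entries held 0 reads and were left out. A TMM table of the authors was not used, nor was their NOISeq-sim procedure, which simulates replicates.

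CreER counts were fitted with edgeR 4.0.16 (R 4.3.3, robust quasi-likelihood, TMM, filterByExpr with a minimum count of 10, prior count 0.125) over 10 libraries, and p-values were adjusted by Benjamini-Hochberg over 18969 genes with a threshold of 0.05. The fit was also run on counts simulated with the same extra spread for every gene. That run does not check the fit against the spread of the real libraries. Each SE of an edgeR fold change was derived as the absolute log2 fold change divided by the square root of the test's F statistic. For *Enpp2* at 36 h against 0 h it was 0.202, and the standard error from DESeq2 was 0.296. O4AID has 1 library at each time and received no test. Its ratios of TMM-scaled CPM carry 95% exact conditional (Clopper-Pearson) intervals from SciPy 1.17.1, which for this reason cover counting error only. Reads have no molecular identifiers, so duplicates count as separate reads and the intervals may be too narrow.

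The members and lists were chosen with earlier results of these data known. Named genes were the members and *Pou5f1*, the 3 nearest in pattern with a mean of at least 50 counts, 1 neighbour on each side, and up to 3 list genes in each direction by size among those passing in CreER. Other list genes were named after their values were seen. A further list gene counts in the totals and is not reported here. Alternatives were other scalings, filters, pseudocounts and references, DESeq2 1.42.0, a replicate term and single libraries left out.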

Additional observations from a re-analysis of the deposited data

Results flagged for a closer look

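*Nlrc4* moved in opposite directions in the routes at 24 h against 0 h. Its log2 fold change was −1.80 in CreER, where both replicates were below both 0 h libraries, and its log2 ratio was 1.35 in O4AID (95% exact interval 0.025 to 2.85). The O4AID value rests on 7 and 18 counts in single libraries, was 0.26 with 1 added to each CPM and 2.08 against the 1.5 h library, and the difference between the routes was not tested.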

How the results depend on the processing

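No called value changed sign under any setting run. For the fall of *Nlrc4* in CreER at 36 h, leaving out single libraries gave −2.55 to −2.002. *Tgm3* at 36 h gave −2.21 on total counts and −2.203 to −2.07 when single libraries were left out. Genes called lower from 12 to 24 h numbered 1282, but 503 on total counts, 750 with DESeq2, 2050 when only the 4 libraries compared were fitted and 510 to 626 with a 12 or 24 h library left out (lowest without replicate 1 at 12 h). In O4AID at 24 h, adding 1 to each CPM gave −4.44 for *C1ql2*, −3.78 for *Trpm1*, −2.25 for *Enpp2*, −0.24 for *Tgm3* and 0.26 for *Nlrc4* (from 1.35), as this compresses low levels. Against the 1.5 h library *C1ql2* gave −4.78 and *Nlrc4* 2.08. Genes lower there numbered 1212, but 483 with that pseudocount, 662 at a mean of at least 50 counts and 2036 with no filter. Of the list genes, 10 were higher there, but 3 with that pseudocount, 6 at a mean of at least 50 counts and 4 against the 1.5 h library, and 6 were lower, but 3 with that pseudocount. Settings for list genes, neighbours and *Pou5f1* were added after seeing the data. Over the genes tested, deviations of same-numbered replicates were nearly uncorrelated (−0.021 to 0.050), which could miss a pairing limited to few genes. A replicate block moved the 1282 genes to 1323 and left *Enpp2* at −1.12 from 12 to 24 h. It changed no call of a member. Of the remaining values, single genes and earlier times, 55 of 615 moved or changed in call or count. Depth limits *C1ql2* and *Trpm1* in CreER and *Nlrc4* and *Tgm3* in O4AID.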
